A study of Mus musculus with 9 samples.

Results

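The nucleotides described here are the A and C readings that stayed below 1500 CPM in all 9 samples of a chemical probing experiment on conserved 5′ untranslated regions. CPM are counts per 1000000 counts of one amplicon in one sample, so each value gives a nucleotide's part of the signal in its amplicon. A reading is one nucleotide in one amplicon, and a position covered by overlapping amplicons has a reading in each. Of 16187 A and C readings, 267 (1.65%) met the rule, at 243 distinct positions. They lay in 93 of 161 amplicons and in 51 of 69 transcripts. The members were chosen by their own reactivity in every sample, so the low values themselves are a description and were not tested.

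The samples were total RNA of E14 mouse embryonic stem cells (genotype E14TG2a), with 3 independent samples in each of 3 groups. Untreated cells were held at 37 °C for 6 min with 250 mM bicine and 1.6% dimethyl sulfate (DMS). ATP-depleted cells received the same DMS treatment after 10 min without glucose in 10 mM 2-deoxyglucose and 10 mM sodium azide, both of which stayed in all later media. The third group was RNA refolded in vitro, for which the sources used here give no DMS conditions. No sample without DMS was analysed here, and the table holds no expression level by which the cell type could be checked.

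DMS methylates the pairing face of A and C that is free, and reverse transcriptase reads through many such adducts with a mutation in the cDNA. A low signal at A or C is usually read as a base in a pair, or one covered by a protein or a tertiary contact. G and U have their pairing face blocked or poorly reactive under most DMS conditions. Here the median of the mean over 9 samples was 954 CPM for all G readings. For all U readings it was 4158 CPM, close to the 4793 CPM of C. Helices in a 5′ leader matter because the small ribosomal subunit has to unwind them on its way to the start codon.

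The sequences below show what the low readings looked like. They were copied from the base column of the deposited table, 5′ to 3′, with T for U. Capitals mark A and C below 1500 CPM in all 9 samples of the amplicon shown, and the numbers are positions in the transcript as the authors numbered them. The first pair holds the longest stretches, and the next 4 hold runs of C.
Rbm10, 547 to 576: AAggtgAgCgCCgttgCgggtCgtgggAtC
Cnot3, 214 to 238: aggaaaaaaAAAAAAAAaaaaggcg
Chd2, 113 to 137: gcccccgcagCCCCCtgcctcttct
Rnf10, 226 to 250: cgagccccggCCtCCtcctcctcct
Ube4b, 601 to 625: ttctgaaacctCCCCcattggggga
Kdm2a, 637 to 661: ggtcgctctgaCCCttctctggata
The other three hold single low A that were low in both overlapping amplicons, while other A and C around them were not.
Rnf10, 290 to 314: ctgggccccacaAccccaccttgcc
Ddx17, 676 to 700: ctagattttgtcAttctgaactctg
Ddx17, 714 to 729: tcctgtcagcatAtca

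C made up most of the set. There were 226 low C, which is 2.42% of 9347 C readings, and 41 low A, which is 0.599% of 6840 A readings. C was 84.6% of the low readings and 57.3% of the other A and C readings. All C readings together had a lower median of the mean over 9 samples (4793 CPM) than all A readings (9075 CPM), so one threshold for both bases lies closer to the bulk of C. For comparison, 36.7% of G readings and 1.81% of U readings lay below 1500 CPM in every sample.

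The low A lay further below the threshold than the low C. The median of the mean over 9 samples was 215 CPM for low A (interquartile range 116 to 379) and 593 CPM for low C (439 to 778). The other A readings had a median of 9102 CPM and the other C readings one of 4899 CPM. Just inside the threshold were Ddx17 C441, with a highest sample of 1499.17 CPM, and Mbd5 C1214, with 1499.21 CPM. Just outside were Brd2 C1647 at 1501.45 CPM and Tmtc2 C541 at 1505.65 CPM. The latter had a mean of 452 CPM, below that of Ddx17 C441 (898 CPM), so the edge of the set depends on single samples.

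The counts behind a low reading were small. Over all 9 samples together a low reading held a median of 244 counts (interquartile range 82.5 to 573). An amplicon library, which is one amplicon in one sample, held a median of 40815 counts. A whole sample, over all 161 amplicons, held 5743965 to 12616275 counts. In the median amplicon library the threshold corresponded to 61.4 counts. In 2 amplicons a reading with 0 counts would lie above 1500 CPM in at least 1 sample, so no nucleotide there could join the set. In the 46 amplicons with a library under 5000 counts, 55 of 4681 readings (1.17%) were low, and in the other 115 amplicons 212 of 11506 (1.84%).

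Medians over the low readings were compared by sample. For low C the median was 636 ± 44.2 CPM in untreated cells, 564 ± 50.2 CPM after ATP depletion and 436 ± 35.9 CPM in vitro (SD, n = 3 each). The in vitro samples (404 to 475 CPM) did not overlap the untreated samples (590 to 678 CPM) or the ATP-depleted samples (507 to 603 CPM), while those last groups overlapped. The other C readings had the same order, at 4942 ± 36.2, 4703 ± 72.4 and 4243 ± 55.8 CPM (SD, n = 3 each). For low A the median was 175 ± 50.3 CPM in untreated cells, 177 ± 45.1 CPM after ATP depletion and 199 ± 54.0 CPM in vitro (SD, n = 3 each), and the groups overlapped.

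**Figure D1:**
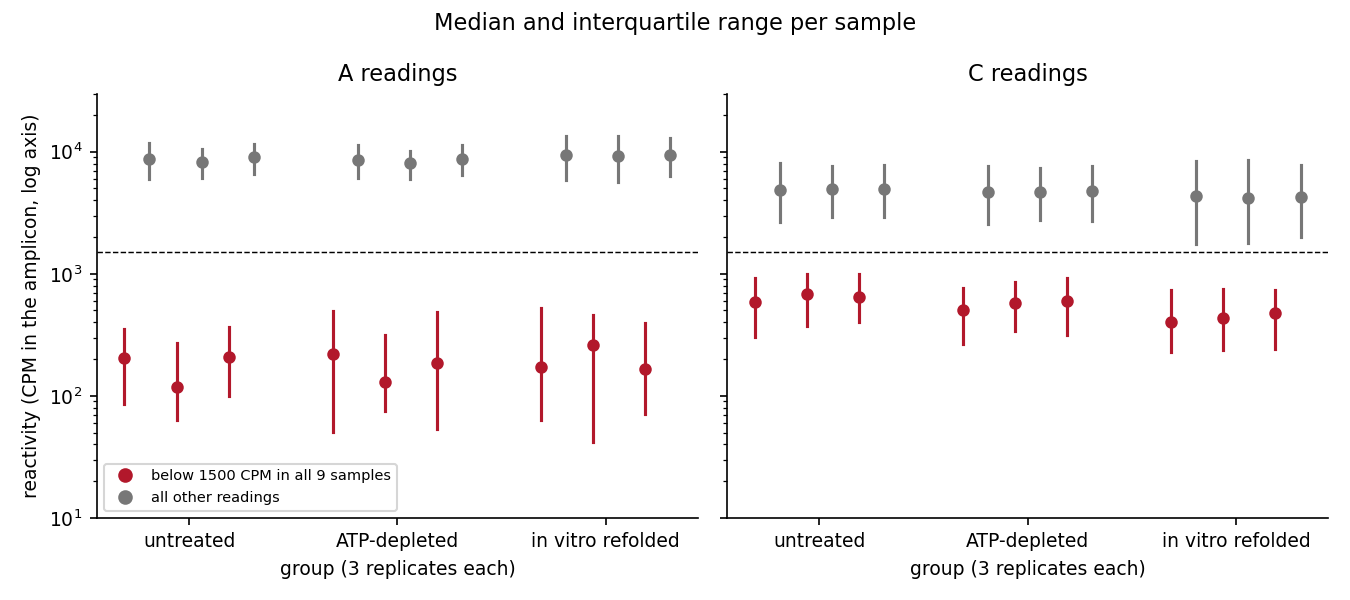
Reactivity in CPM (log axis) of low A and C (red) and of all other A and C (grey) in each of the 9 samples. Points are medians over readings, bars are interquartile ranges over readings, and the dashed line is the 1500 CPM threshold of the rule, which separates the sets by construction. The low C of the in vitro samples sit at 404 to 475 CPM and those of the untreated samples at 590 to 678 CPM.

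Requiring a low value in every group removed most readings that were low in one. There were 538 A and C readings below 1500 CPM in all 3 untreated samples, 670 in all 3 ATP-depleted samples and 1128 in all 3 in vitro samples. The 267 low readings made up 49.6%, 39.9% and 23.7% of these lists. Low in all 6 in-cell samples were 385 readings, of which the set was 69.4%. Untreated and in vitro lists shared 318 readings, which was 59.1% of the untreated list and 28.2% of the in vitro list.

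Neighbouring bases of low C were mostly pyrimidines. C preceded 51.8% of low C and 31.9% of other C, while A preceded 3.10% and 15.6%. On the 3′ side, C followed 42.9% of low C and 32.1% of other C, and U followed 35.4% and 24.6%. A and G followed low C less often than other C, at 10.6% against 20.3% and at 11.1% against 22.5%. The share with G before it was 24.3% of low C and 31.7% of other C. Among trinucleotides, 49 of 681 C in the context CCU (7.20%) were low, 44 of 948 in CCC (4.64%) and 22 of 586 in UCC (3.75%).

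Runs of one base were also more frequent. A run of at least 2 C held 75.2% of low C and 54.2% of other C, and a run of at least 5 held 9.73% and 3.42%. Among A, 58.5% of low A followed another A, against 26.5% of other A, and G followed 7.32% against 35.4%. Runs of 9 or more A held 20 of 41 low A (48.8%) and 46 of 6799 other A (0.677%). These 20 readings came from 11 positions in 3 transcripts, Cnot3, Nfe2l1 and Ddx6, so they are few independent sites.

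**Figure D2:**
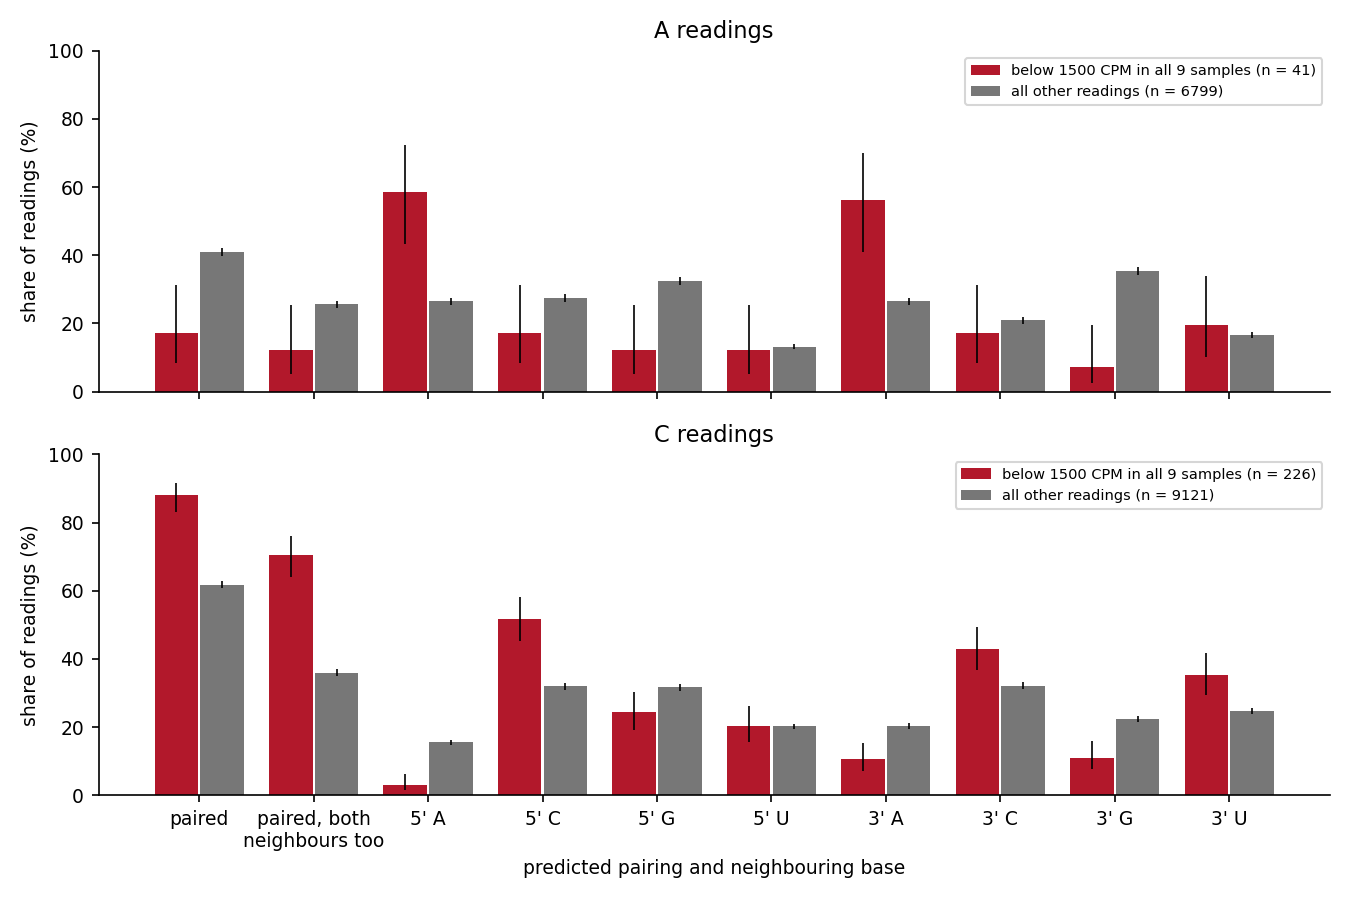
Share of readings in percent, for low A and C and for all other A and C, by predicted pairing and by the base on each side, with A above and C below. Black lines are 95% Wilson intervals. Among low C, 51.8% had C on the 5′ side and 88.1% were paired in the predicted fold, against 31.9% and 61.8% of other C.

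A predicted fold, which did not use the probing data, was set beside the readings. The minimum free energy fold of each amplicon sequence was computed with RNAfold at 37 °C. In it 199 of 226 low C were paired (88.1%; 95% Wilson interval 83.2 to 91.7%), against 5634 of 9121 other C (61.8%). Wilson intervals here cover counting error only, and neighbouring nucleotides share helices. Both neighbours of a low C were paired as well in 70.4%, against 36.0% of other C. The median predicted pairing probability was 0.988 for low C and 0.751 for other C, although GC content within 21 nt was similar (medians 61.9% and 62.5%).

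Low A did not show this. Only 7 of 41 were paired in the predicted fold (17.1%; 95% Wilson interval 8.53 to 31.3%), against 40.8% of other A. The 20 low A in runs of 9 or more A, at 11 positions, held 0 of these pairs and make up much of the contrast. Outside them, pairs were predicted for 3 of 10 at or next to a reading of 0 counts, 2 of 4 in the Rbm10 stretch and 2 of 7 elsewhere. Pairing at both neighbours was predicted for 12.2% of low A. GC content within 21 nt had a median of 38.1% around low A and 47.6% around other A. The label of protected nucleotides therefore had no counterpart in the predicted fold for most low A, and they are called low readings here.

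Pairing and neighbours were then combined for C. Of 5833 C paired in the fold, 3.41% were low, and of 3514 unpaired C, 0.768%. Paired C after another C were low in 5.74%, and paired C after A in 0.693%. Among unpaired C, those followed by U were low most often, in 1.78%. Paired A were low in 0.251% of 2783 readings and unpaired A in 0.838% of 4057. The unpaired low A include the 20 in runs of 9 or more A.

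The G opposite a low C was itself low more often. The predicted partner of the 199 paired low C was G, with a median of 500 CPM, and 65.3% of these partners lay below 1500 CPM in all 9 samples. The G partners of 5634 other paired C had a median of 844 CPM, and 41.7% lay below the threshold in all samples. The rule did not use G, but G and C of an amplicon share its library and depth.

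Signal at G and U near low C was lower too. Within 5 nt of low C the median was 1653 CPM at U and 730 CPM at G, against 3782 and 1021 CPM around other C. U directly beside a low reading had a sample median of 707 to 1189 CPM over the 9 samples, and U beside other A and C one of 3246 to 4642 CPM. G directly beside a low reading had sample medians of 328 to 500 CPM, against 772 to 965 CPM. The ranges over the 9 samples did not overlap for either base. Around low A the U median within 5 nt was 2680 CPM, against 4546 CPM around other A, while the G medians lay close together at 996 and 1086 CPM.

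Along the amplicon, low C were not evenly placed. With the amplicon cut into 5 equal parts, from 5′ to 3′ they were 19.5%, 27.4%, 29.2%, 16.4% and 7.52%, whereas other C lay between 19.5% and 20.5% in each. For low A the shares were 21.95%, 31.7%, 24.4%, 12.2% and 9.76%. How many reads covered each position is unknown.

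Low readings formed short stretches. In the order of A and C along each amplicon, with G and U passed over, the 267 readings fell into 188 stretches. Of the readings, 140 (52.4%) stood alone and 127 (47.6%) were next to another low A or C. There were 37 stretches of 2, 5 of 3, 2 of 4 and single stretches of 5, 7, 8 and 10. The stretches of 7 and 8 are readings of the same A run in overlapping amplicons of Cnot3.

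The longest stretch lay in Rbm10, an RNA-binding regulator of splicing, between positions 547 and 576. All 30 nucleotides of any base were below 1500 CPM in every sample, namely 14 G, 6 U, 6 C and 4 A. Their mean was 113 CPM, the means of single nucleotides ran from 7.69 to 661 CPM, and the 9 samples held 2224 counts in all there. Of all other unbroken low stretches of any base, the longest were 8 nt, so the Rbm10 window stood apart in length.

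Values within the Rbm10 window varied between samples. The rule that named this stretch did not choose the single sites shown from it. At A547 the untreated samples had 118, 241 and 335 CPM, the ATP-depleted samples 59.9, 422 and 339 CPM, and the in vitro samples 54.7, 70.2 and 71.0 CPM. At C563 the values were 245, 172 and 154 CPM in untreated cells, 214, 186 and 77.3 CPM after ATP depletion and 23.4, 14.0 and 7.89 CPM in vitro. The in vitro samples were below all in-cell samples at C563, while at A547 ATP-depleted replicate 1 lay among them. C576 had 0 counts in all 9 samples of an amplicon with 642832 counts, which allows up to 4.67 CPM for counting error only. Of the 30 nucleotides, 20 were paired in the predicted fold, and G and U were low with A and C.

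A run of 18 A in Cnot3, a subunit of the CCR4-NOT deadenylase, held the next stretches. In the amplicon from 160 to 410 the mean signal fell along the run from 29251 CPM at A217 to 1782 CPM at A222, 867 CPM at A223 and 172 CPM at A228. It then rose from 341 CPM at A230 to 4524 CPM at A231 and 9483 CPM at A233. The same course was seen in the amplicon from 103 to 353, from 32520 CPM at A217 to 114 CPM at A228 and 5007 CPM at A231. So 8 A in one amplicon and 7 in the other fell below the threshold in a run of one base whose other members were high, and none of these A was paired in the predicted fold.

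The rule fixed that these A were low in every group, so their values show only the spread. At A228 in the amplicon from 160 to 410 the untreated samples had 186, 179 and 95.6 CPM, the ATP-depleted samples 219, 137 and 77.3 CPM, and the in vitro samples 110, 427 and 122 CPM. The groups overlapped. In Nfe2l1, a transcription factor of proteasome genes, A209 and A210 of a 10-A run from 205 to 214 were low in both amplicons that cover it. In Ddx6, a DEAD-box helicase of mRNA decapping, A142 at the 5′ end of a 10-A run had 0 counts in all 9 samples.

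The next stretches were C. Those from here to the end of the account of hairpins lie outside the naming rule and were chosen after their values were seen. In Chd2, a chromodomain chromatin remodeller, C123 to C127 formed the only stretch of 5, in the amplicon from 1 to 251. In the amplicon from 31 to 281 C125 was not low in all samples, with a highest sample of 1979 CPM, and split the stretch. C124 had 151, 229 and 387 CPM in untreated cells, 70.7, 113 and 89.5 CPM after ATP depletion and 513, 198 and 527 CPM in vitro, in the first of these amplicons. In the other it had 252, 164 and 221 CPM, then 428, 127 and 94.99 CPM, then 561, 174 and 131 CPM. The ATP-depleted samples were below all others in the first amplicon and overlapped them in the other.

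**Figure D3:**
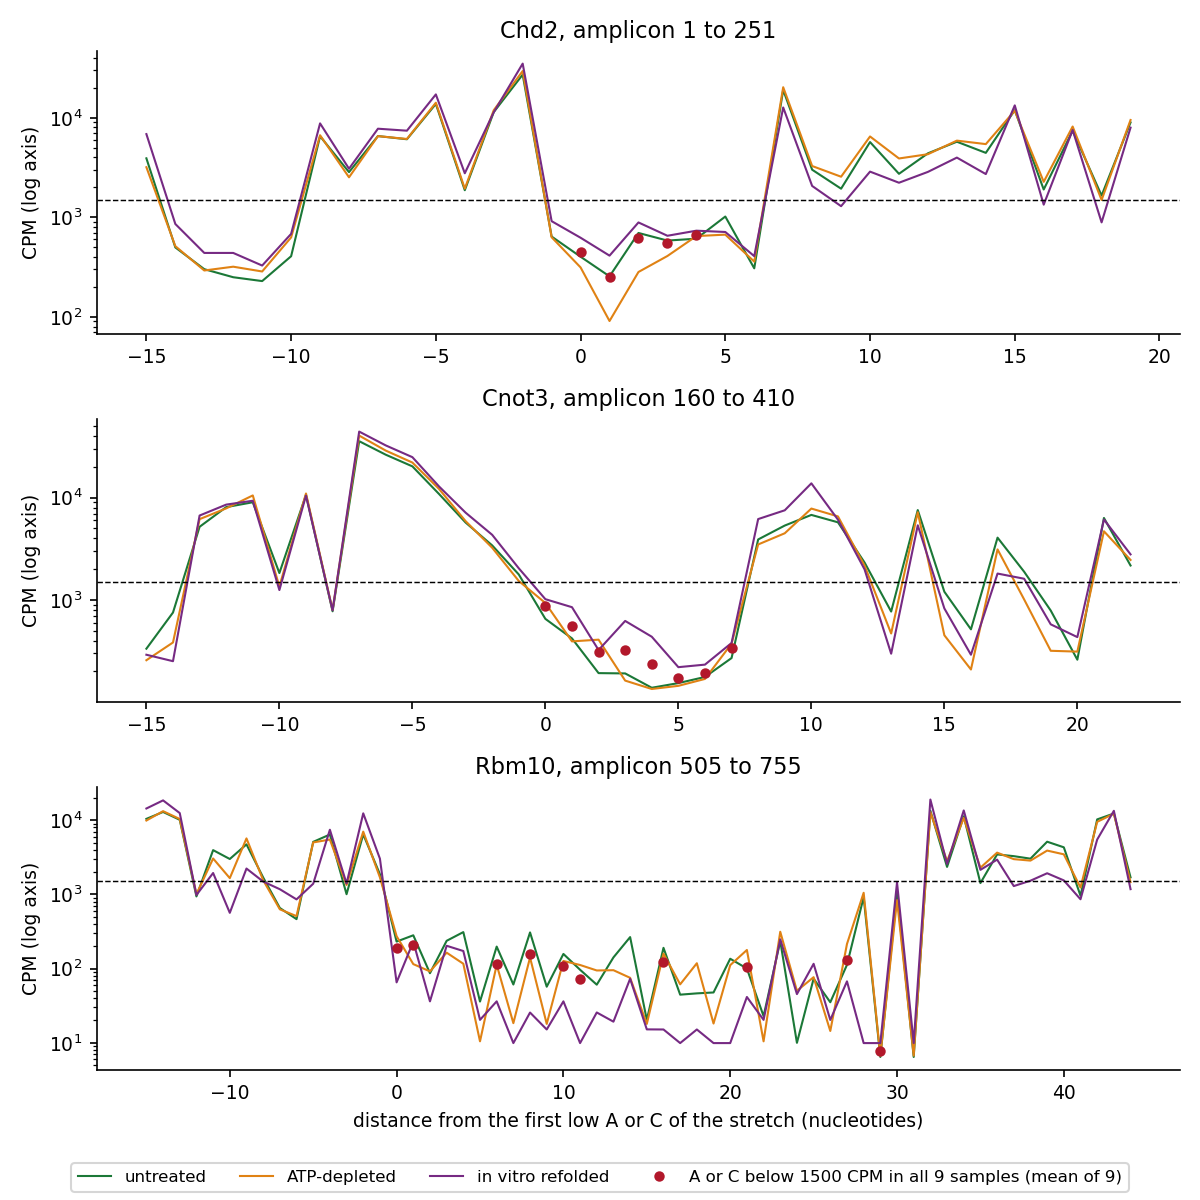
Mean reactivity of each group in CPM (log axis) along 3 stretches, against the distance in nucleotides from the first low A or C. Red points are the low A and C at their mean over 9 samples and the dashed line is 1500 CPM. In Chd2 the low C and the G and U beside them form a low stretch of 8 nt, in Cnot3 the signal falls from 29251 CPM to 172 CPM along a run of A, and in Rbm10 all bases lie below the line for 30 nt.

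Of the 8 stretches of at least 3 C, 6 faced a run of G nearby in the predicted fold. The sequences below run from one strand of each predicted hairpin to the other, again with low A and C in capitals.
Chd2, 109 to 127: gggggcccccgcagCCCCC
Ube4b, 612 to 624: CCCCcattggggg
Kdm2a, 636 to 650: gggtcgctctgaCCC
Rbm10, 671 to 685: gggccccagcagCCC
Eed, 242 to 261: gggcgcgcgcgtgcgcgCCC
In Chd2 the predicted partners were G109 to G113, with means of 281 to 624 CPM, and all 5 lay below 1500 CPM in every sample. The low C of that hairpin had means of 253 to 665 CPM. The C at 114 to 118, which lie between these strands, were not in the set, with means of 2819 to 15056 CPM, although their sequence is the same 5 C.

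In Ube4b, a ubiquitin chain elongation factor, the low C at 612 to 615 faced G621 to G624 across 5 nt. The partner G had means of 269 to 446 CPM, and 4 of 4 were below the threshold in all samples. C613 had 462, 317 and 438 CPM in untreated cells, 348, 225 and 786 CPM after ATP depletion and 164, 383 and 364 CPM in vitro. The groups overlapped. These values are of the amplicon from 542 to 792. In that from 395 to 645, where the 4 C lie 7 to 10 nt from the last nucleotide read, none was low in all samples, with means of 850 to 1485 CPM. In Kdm2a, a histone demethylase, the low C at 648 to 650 faced G636 to G638, of which 2 of 3 were low in all samples. C648 had 239, 336 and 456 CPM, then 230, 426 and 546 CPM, then 344, 178 and 675 CPM in the same order of groups, which overlapped too.

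In Rbm10 the low C at 683 to 685, outside the low window, faced G671 to G673, with 3 of 3 low and means of 285 to 349 CPM. C684 had 136, 211 and 218 CPM in untreated cells, 163, 253 and 161 CPM after ATP depletion and 570, 407 and 560 CPM in vitro. The in vitro samples were above all in-cell samples there, opposite to the order at C563 of the same amplicon. In Eed, a subunit of Polycomb repressive complex 2, C259 to C261 faced G242 to G244, of which 1 of 3 was low in all samples. That was in the amplicon from 214 to 464, and in the one from 71 to 321 none of the 3 C was low in all samples, with means of 792 to 1062 CPM. In Ppp1r10, a regulatory subunit of protein phosphatase 1, C322 to C324 faced G348 to G350, with 3 of 3 low.

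The stretch of 4 C in Rnf10, a RING-finger ubiquitin ligase, was not a predicted strand of this kind. Of its nucleotides from 236 to 240, 1 was paired in the predicted fold. C237 had 115, 112 and 198 CPM in untreated cells, 188, 39.2 and 194 CPM after ATP depletion and 8.16, 89.1 and 129 CPM in vitro, in the amplicon from 107 to 357. U241, just after the stretch, had 0 counts in all 9 samples of that amplicon. The groups overlapped, and the overlapping amplicon read the same positions far higher, as given with the second readings.

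Some low readings had no counts at all. There were 29 readings of any base with 0 counts in all 9 samples, of which 4 were A and 5 were C, and these 9 are members of the set. Rnf10 A302 had 0 counts in both amplicons that cover it, which allows up to 2.85 and 3.11 CPM (3 counts of 1052717 and of 963945). The other 7 readings were Tjap1 A402, Srgap2 C224, Ddx6 A142, Rbm10 C576, Smad6 C165, Ube4b C351 and Rnf10 C103, with upper limits from 1.77 to 55.5 CPM. At or next to a reading with 0 counts lay 11 of 41 low A and 9 of 226 low C. An A or C with 0 counts meets the rule by itself, so no comparison with other readings is drawn.

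The low A thus fell into few kinds of place. Runs of 9 or more A held 20, the Rbm10 window 4, sites at or next to 0 counts and outside those places another 10, and 7 lay elsewhere. The 7 others were 5 readings of Srgap2 between 218 and 229, and 1 each in Pafah1b1 and Ddx17. In Srgap2, A218, A219 and A221 were low in the amplicon from 68 to 318. A227 and A229 were low in that from 196 to 446, where they lie 1 and 3 nt from the first nucleotide read.

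Where amplicons overlapped, a position had another value that the rule did not use for the first. The 96 such readings of low positions had a median of 665 CPM (interquartile range 405 to 1180), and second readings of other positions one of 6754 CPM. In 48 of 96 (50.0%) the second reading was also below 1500 CPM in all 9 samples, against 48 of 5178 (0.927%) of the others. A position low in both amplicons enters this count once for each reading. By position, 24 of 72 were low in all samples of both amplicons. The mean of the second reading lay below 1500 CPM in 83 of 96 (86.5%), against 3.82%. In single samples 76.0% to 90.6% of the second readings were below the threshold. Overlapping amplicons of one sample share its RNA, so the second value is not independent of the sample. Whether they were amplified in separate reactions has no description in the sources used here.

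By base, 24 of 27 second readings of low A (88.9%) and 24 of 69 of low C (34.8%) were low in all samples. The second readings had medians of 226 CPM for A and 968 CPM for C. For C, 58 of 69 (84.1%) had a mean below 1500 CPM, so a low mean in the other amplicon was more frequent for C than a low value in all of its samples. These second readings came from 15 positions of A and 57 of C. The A positions low in both amplicons were A224 to A230 of the Cnot3 run, A209 and A210 of the Nfe2l1 run, Rnf10 A302, and Ddx17 A688 and A726. They are thus few sites, most of them in runs of A. Srgap2 A227 and A229 were not low in the other amplicon, with means of 4585 and 5283 CPM.

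**Figure D4:**
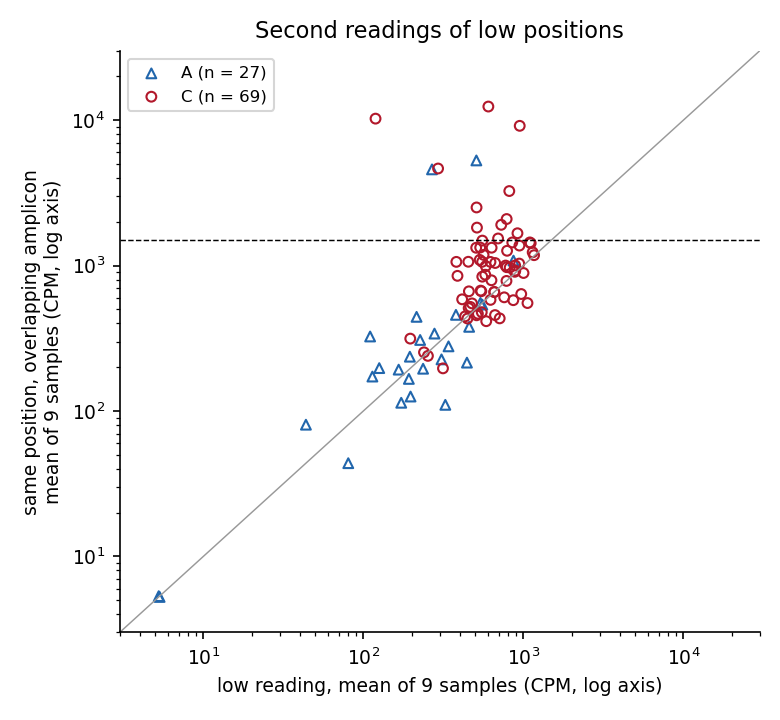
Mean CPM over 9 samples of the first reading of a low position and of its reading in the overlapping amplicon (log axes), with a dashed line at 1500 CPM and a grey line of equal values. Triangles are A and circles are C. Of 96 second readings 83 have a mean below the line, and the highest, from Rnf10, reach 12401 CPM.

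The 4 positions with the lowest values in both amplicons were all A. Rnf10 A302 had no counts in 18 libraries. Ddx17 A688 had means of 43.8 and 80.5 CPM and Ddx17 A726 of 197 and 126 CPM, each just before a U with 0 counts in both amplicons. Cnot3 A228 had 114 and 172 CPM. Ddx17 encodes a DEAD-box RNA helicase. At A726 in the amplicon from 503 to 753, in vitro replicate 1 had 1129 CPM, while the other 8 samples had 34.1 to 125 CPM.

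The highest second readings were in Rnf10. C240 had a mean of 604 CPM in the amplicon from 107 to 357 and 12401 CPM in that from 15 to 265. C237 had 119 and 10239 CPM, and C239 had 949 and 9138 CPM. In the higher amplicon these positions lay 6 to 9 nt from the last nucleotide read, and in the lower one 91 to 94 nt from it. By ratio, Rnf10 C237 and C240 came first, while Srgap2 A227 (268 and 4585 CPM) and A229 (508 and 5283 CPM) exceeded Rnf10 C239. Of all 13 second readings with a mean of 1500 CPM or more, 9 lay within 25 nt of an end of either amplicon, as did 40 of all 96.

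Low readings were spread over transcripts unevenly. By distinct A and C positions the median transcript had 1.10% low. The highest shares were in Rbm10, with 13 of 102 positions (12.7%), Acvr2a, an activin receptor, with 7 of 79 (8.86%), and Ptp4a2, a protein tyrosine phosphatase, with 14 of 201 (6.97%). In Rbm10, 10 of the 13 lay in the low window from 547 to 576. The 10 transcripts with at least 10 low readings held 128 of the 267 (47.9%).

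Acvr2a differed from Rbm10 in that all 7 low readings were C and all were paired in the predicted fold. At C254 the untreated samples had 1061, 834 and 754 CPM, the ATP-depleted samples 626, 1249 and 1246 CPM, and the in vitro samples 233, 217 and 115 CPM. At C325 the values were 977, 874 and 454 CPM, then 523, 371 and 479 CPM, then 91.2, 217 and 152 CPM. The in vitro samples were below all in-cell samples at both sites. The sites shown are not all 7 and lie outside the naming rule. How often this order occurred over all A and C readings was not counted. The median of other C was also lower in vitro (4243 CPM) than in untreated cells (4942 CPM). At C296 the groups overlapped, with 152, 553 and 369 CPM, then 214, 174 and 288 CPM, then 172, 275 and 261 CPM.

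In Ptp4a2, 13 of the 14 low positions were C. Of these, C187 and C559 are shown, and they lie outside the naming rule too. C187 had 568, 1334 and 1091 CPM in untreated cells, 659, 955 and 962 CPM after ATP depletion and 178, 226 and 174 CPM in vitro, so that the in vitro samples were below all others. C559 had 525, 686 and 539 CPM, then 653, 585 and 548 CPM, then 445, 432 and 499 CPM in the amplicon from 465 to 715, again with the in vitro samples lowest. In the amplicon from 459 to 709 C559 was not low in all samples, with a highest sample of 2072 CPM and a mean of 666 CPM. The single low A of Ptp4a2, A113, held 16 counts over the 9 samples and lay next to a reading with 0 counts.

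No low reading was found in 18 transcripts, all with at least 40 A and C positions. The ones with most positions were Azin1, an inhibitor of antizyme, with 351, Eif5, a translation initiation factor, with 215, and Hipk3, a protein kinase, with 209. This order by size was chosen after the values were seen. The 18 include Ptms and Senp3, each read in 1 amplicon with a smallest library of 96 and 235 counts. Theirs are the 2 amplicons where a reading with 0 counts would lie above 1500 CPM in at least 1 sample. No reading of Ptms or Senp3 could therefore join the set at this depth. Whether any would be low in deeper libraries is unknown. The median of the smallest library was 8711 counts in transcripts without low readings and 4123 counts in those with them, and median GC content was 60.1% and 58.1%. The smallest library is taken over all amplicons of a transcript, from 1 in Ptms to 6 in Brd2, so these medians do not compare depth alone. By amplicon, 1.17% of readings were low where a library held under 5000 counts and 1.84% elsewhere.

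**Figure D5:**
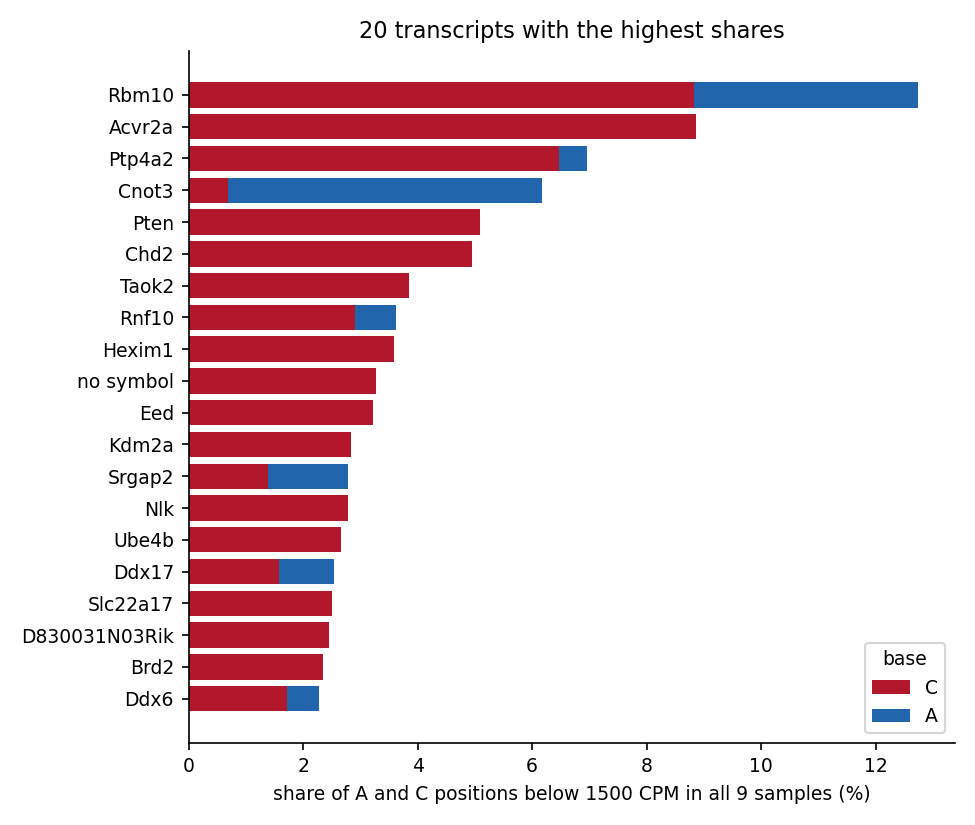
Percent of distinct A and C positions below 1500 CPM in all 9 samples, for the 20 transcripts with the highest shares, with bars from 0 split by base. One transcript without a matched symbol is marked so. Rbm10 leads with 12.7%, followed by Acvr2a (8.86%) and Ptp4a2 (6.97%), and low A are a visible part of few bars.

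Groups were compared with limma on log2(CPM + 3196.78), a scale that compresses changes among low values. The fit covered 16178 A and C readings and included 258 of the 267. The other 9 had no counts. The rule held every value of a member below 1500 CPM in all 3 groups, and the pseudocount of 3196.78 CPM exceeds that threshold. Changes among members are therefore compressed on this scale, and nothing is read from a small count of calls. For in vitro against untreated, limma called 2 of 258 at an adjusted p below 0.05, both lower in vitro, where 16.3% of all tested readings were called (8.08% higher and 8.18% lower). For in vitro against ATP-depleted it called 1, which was higher in vitro, where 14.9% of all were called (8.31% higher and 6.56% lower). These comparisons share the in vitro samples, and the fits share all samples. On the deposited log2 values, without the pseudocount, each of them called 25 of 258 members, beside 14.5% and 13.8% of all.

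The members called were C in predicted pairs, as were 199 of all 267 members. Ext1 C494, in the mRNA of a heparan sulfate polymerase, had 1010, 1137 and 1007 CPM in untreated cells, 609, 949 and 761 CPM after ATP depletion and 190, 224 and 233 CPM in vitro. Its log2 change in vitro against untreated was −0.32 ± 0.08 (SE; limma adjusted p = 0.0359). Ints6 C270, in the mRNA of an Integrator subunit, had 1361, 1264 and 1049 CPM, then 1095, 1309 and 1110 CPM, then 593, 95.6 and 280 CPM. Its change was −0.33 ± 0.09 (SE; limma adjusted p = 0.0441). At both sites all 3 in vitro samples were below all 6 in-cell samples.

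Against ATP-depleted cells, Tulp4 C171 was higher in vitro. It had 746, 738 and 466 CPM in untreated cells, 576, 385 and 284 CPM after ATP depletion and 1198, 1217 and 1356 CPM in vitro. The log2 change was 0.30 ± 0.09 (SE; limma adjusted p = 0.0497), and the in vitro samples were above all others. Ints6 C270 came next, with −0.31 ± 0.09 (SE; limma adjusted p = 0.0552), and did not pass. Each of the 3 calls was lost when any 1 sample other than in vitro replicate 1 was left out, with 0 calls among members in both comparisons. Leaving out that one gave 1 call against untreated and 2 against ATP-depleted.

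For ATP-depleted against untreated, limma called 0 of 16178 readings (0.0% of all) and 0 of 258 members. At an unadjusted p below 0.05 there were 636 readings over all and 1 member. That member was Pafah1b1 C492, in the mRNA of a dynein regulator, which the ATP-depleted group read at 464 ± 239 CPM (SD, n = 3) and the untreated group at 1152 ± 114 CPM (SD, n = 3), with a log2 difference of −0.25 ± 0.09 (SE; limma adjusted p = 0.999943). The next was Rnf10 C76, at 345 ± 170 CPM (SD, n = 3) against 913 ± 276 CPM (SD, n = 3; limma adjusted p = 0.999943).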

How the data were processed

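The authors deposited one table of log2 values, one per nucleotide, amplicon and sample, with base and transcript position. The submitters' processing notes name bcl2fastq, Bowtie2 and limma, with no role or version. The counting of mutations and the genome build have no description in the sources used here, so no genome coordinate is printed, and whether a position lies in the untranslated part was not checked. From the values, each equals log2 of (a whole number + 0.5) per library size in CPM. Within a tolerance of 0.0001, 100% of values came out whole in all 1449 libraries (an amplicon in a sample), and they are taken to be mutation counts. Library counts ran from 96 to 624295, with a median of 40815. Counts of amplified cDNA are not independent molecules.

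Reactivity was 2 raised to the deposited value. Gene symbols came from RefSeq for 68 of 69 transcripts. Amplicon sequences were folded with RNAfold 2.7.2. The model of limma 3.58.1 (R 4.3.3) held a mean for each group over the 9 samples, on log2(CPM + a pseudocount of 3196.78, which is 0.5 times the median of A and C), with Benjamini-Hochberg adjustment over 16178 readings and two-sided tests. The fit was also run on simulated data, whose outcome is not given here. Groups were read from the titles of the samples.

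The members and lists were chosen with earlier results of these data known. Sites were named by rule: the 3 longest stretches, the 3 transcripts with the highest and with the lowest share, the 4 positions lowest in both amplicons, the 3 highest second readings, 2 readings on each side of the threshold, and the 2 members with the smallest p in each comparison. Other single sites shown from the named stretches and transcripts lie outside this rule. Alternatives were thresholds of 1000 and 2000 CPM, the mean over samples, 1 reading per position, omission of 25 nt at amplicon ends and of single samples, other folds, and other limma scales and filters.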

Additional observations from a re-analysis of the deposited data

How the results depend on the processing

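C remained the larger part of the set, and most members remained paired, under every alternative run. With thresholds of 1000 and 2000 CPM the set held 112 and 501 readings, of which C was 73.2% and 89.4%. At 1000 CPM 69.6% were paired, and at 2000 CPM 60.6% of second readings were low. Requiring only the mean over 9 samples to be low gave 944 readings, with 92.7% C, 83.3% paired, 56.9% next to another and 66.2% of second readings low. Without 25 nt at each amplicon end 60.7% of second readings were low. Without the Rbm10 window and the A runs, an alternative chosen after seeing the data, C was 92.8%, 84.0% were paired, 41.4% were next to another and 39.0% of second readings were low. With 1 reading per position no second reading is left, so no value was given.

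Leaving out 1 sample at a time gave 275 to 303 readings, with 85.1% to 86.1% C, 77.4% to 78.6% paired against 77.2% with all samples, 45.3% to 51.9% next to another, 22.4% to 23.8% after a G against 22.5%, and 49.0% to 57.4% of second readings low.

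Counts of limma calls among members depended on the scale. For in vitro against untreated they were 25 on the deposited log2 values (2 higher, 23 lower), 23 with a pseudocount of 0.1 times the median (2 higher, 21 lower) and 4 after division by each amplicon's median (all lower). The same fits called 14.5%, 15.9% and 15.6% of all readings tested. Member calls were 0 with 1 times the median, with a filter on mean CPM, which left 10 members, and with the 6 compared samples alone, where 16.1%, 16.5% and 8.23% of all were called. For in vitro against ATP-depleted the counts in the same order were 25, 19, 6, 0, 0 and 0, beside 13.8%, 14.5%, 14.6%, 15.3%, 15.03% and 9.91% of all. Leaving out 1 sample gave 0 to 1 and 0 to 2 calls, and 0 for ATP-depleted against untreated. With the replicate number as a block, limma called 0 members in each comparison. Same-numbered samples had deviations that correlated at −0.02 to 0.10, so the numbers were not taken to pair the samples.

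Depth limits the set: the coverage of each nucleotide is not known, the threshold was about 61.4 counts in the median library, and 9 members had no counts.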
